A study of Mus musculus with 19 samples.

Results

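The transcriptome of leukemic mouse cells treated with 5-azacytidine was compared with that of wild-type cells, to describe which expression differences were present under the hypomethylating drug. The comparison holds 8 of the 19 RNA-seq libraries of the series. It sets the 4 libraries headed AZ10, AZ11, AZ16 and AZ17, from Tet2-/-;Flt3-IDT mice with acute myeloid leukemia given 5-Aza, against the 4 libraries headed wt1 to wt4, from untreated wild-type (WT) mice. The members were chosen by these column headers, and every RefSeq accession in the table was considered. All mice carried the C57BL/6 label. The leukemic genotype combines loss of Tet2 with an internal tandem duplication of Flt3, which the labels spell IDT. Per the labels' protocols, the mice received 5-Aza intraperitoneally at 5 mg/kg a day for 5 days, repeated every 21 days over 4 cycles. The submitters' design text writes decitabine beside the drug's name. Every group consisted of primary, uncultured cells sorted as lineage-negative, Sca-positive and cKit-positive (LSK), from which polyA RNA was sequenced. The 4 libraries of vehicle-treated Tet2-/-;Flt3-IDT mice, headed V1, V5, V5-2 and V19, were used for reference. V5 and V5-2 share a number, the labels do not say whether they came from 1 mouse, and they were counted as separate libraries. Ages are not given in the labels, nor is it said whether each library came from a separate mouse, so the spread behind each p-value is that among these libraries and may be technical. No WT mice treated with 5-Aza were among the 19 libraries, so the genotype, the leukemia and the drug cannot be told apart in the comparison with WT.

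The LSK gate holds the blood-forming stem cells of the bone marrow together with the earliest multipotent progenitors, some of which are already biased towards lymphoid, myeloid or erythroid and megakaryocytic fates. TET2 oxidises 5-methylcytosine, a step on the way to removing DNA methylation. FLT3 is the receptor for a growth factor of early progenitors, and the internal tandem duplication makes it signal without ligand, through STAT5 among other routes. 5-azacytidine is a cytidine analog that is phosphorylated in the cell, enters RNA and DNA and traps the DNA methyltransferases.

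Total counts per library were 12109035 to 13133042 with 5-Aza, 10176915 to 12253599 in WT and 9635795 to 20383132 with vehicle. Tet2 had 121, 117, 137 and 145 CPM (counts scaled to a common library total) in wt1 to wt4 and 88.8, 107, 59.6 and 36.4 CPM in AZ10, AZ11, AZ16 and AZ17. This order of libraries is used throughout, and vehicle values are given in the order V1, V5, V5-2 and V19. All 4 treated libraries lay below all 4 WT libraries for Tet2. edgeR called the difference when the 8 libraries were fitted alone and not over all 19 (log2 fold change with its standard error -0.84 ± 0.31, Benjamini-Hochberg adjusted p = 0.186 by edgeR's quasi-likelihood test over 19 libraries, and 0.0316 over the 8). Over 19 libraries DESeq2 did not call it, while limma did, by voom with quality weights and on both FPKM scales. The labels do not say which part of Tet2 is deleted, and a count over the whole transcript does not check it. Flt3 had 328, 303, 534 and 465 CPM in WT and 159.8, 304, 137 and 316 CPM with 5-Aza (log2 fold change -0.83 ± 0.41, adjusted p = 0.323, and 0.0467 in the 8 libraries alone). The 2 groups overlapped for Flt3. The gate genes Kit and Ly6a (Sca-1) could not be checked, because accessions that share reads left them between 0 and 0.151 CPM in all 12 libraries when summed. Among lineage genes that the gate should remove, WT libraries held 42.6, 31.1, 26 and 31.2 CPM of the B-cell gene Ms4a1.

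The 5-Aza libraries lay between WT and vehicle on the first principal component only. On this component of the 12 libraries, which held 34.7% of the variance, WT libraries scored -71.0 to -47.0, 5-Aza libraries -9.16 to 25.3 and vehicle libraries 30.8 to 103.5. The second component held 21.2%, with WT at -2.65 to 14.2, 5-Aza at -3.78 to 21.5 and vehicle at -100.5 to 70.7. Of 11830 accessions tested in a fit of all 19 libraries, 73 (0.617%) were higher and 130 (1.1%) lower in 5-Aza than in WT at an adjusted p under 0.05. The vehicle libraries differed from the same WT libraries at 524 (4.43%) higher and 675 (5.71%) lower accessions, and from the 5-Aza libraries at 51 (0.431%) accessions higher and 171 (1.45%) lower with 5-Aza.  The biological coefficient of variation was 42.95% over all 19 libraries and 24.48% in the 8 compared here. In a fit of the 8 libraries alone, 907 (8.52%) accessions were higher and 1250 (11.7%) lower than in WT, out of 10648 tested, and 189 of the 203 calls of the larger fit were among them. The pairwise fits of the vehicle libraries called 383 (3.61%) higher and 465 (4.39%) lower than in WT, and 22 (0.216%) higher and 161 (1.58%) lower in 5-Aza than in vehicle. On the FPKM scale, limma called 75 higher and 769 lower with a pseudocount of 1 and 70 higher and 490 lower with 0.1, a split further towards lower calls. Calls below are from the 19-library fit. The adjusted p of the 8-library fit is given for each named gene called against WT there and not in the 19-library fit. Without single libraries, the 73 higher calls became 54 (AZ10), 34 (AZ11), 41 (AZ16), 29 (AZ17), 31 (wt1), 45 (wt2), 31 (wt3) and 31 (wt4). The 130 lower calls became 46 (AZ10), 53 (AZ11), 52 (AZ16), 44 (AZ17), 53 (wt1), 94 (wt2), 50 (wt3) and 52 (wt4).

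**Figure D1:**
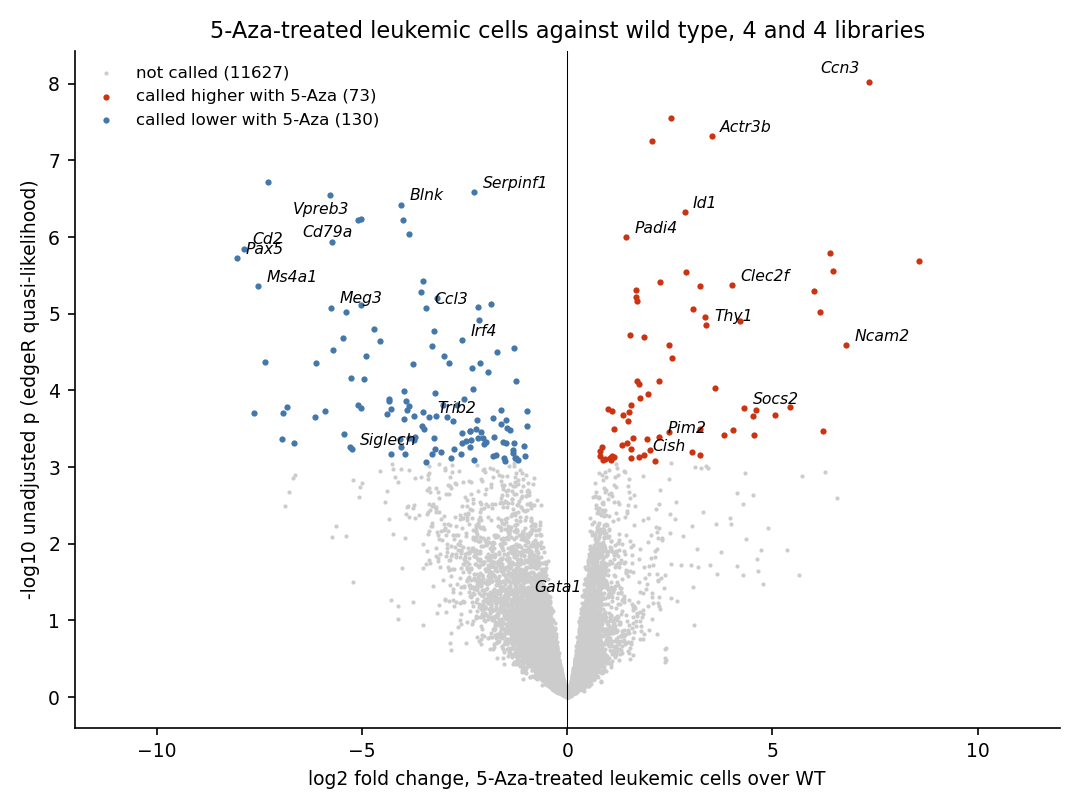
Log2 fold change of 5-Aza-treated leukemic cells over WT (x axis) against the -log10 of the unadjusted p (y axis) for 11830 accessions, with called accessions in color, 73 higher and 130 lower. Ms4a1 and Pax5 are among the accessions farthest to the left, and Ccn3 has the smallest p. Fitted fold changes of genes with 3 counts or fewer in a group depend on a prior count.

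The genes of the B-cell lineage were the group that stood lowest. Of 25 listed B-cell genes 18 could be tested, and 13 of them were lower in 5-Aza than in WT, against 1.1% of all accessions, and none was higher. Their median log2 fold change was -4.45, where that of all accessions was -0.03, and it was the same with Pax5 set at its bound. Between 11 and 13 were called when single libraries were left out. The summed level of the list was 657 to 867 CPM in WT and 88.8 to 161 CPM with 5-Aza. In bulk RNA, fewer cells of a type and less RNA per cell cannot be told apart. With vehicle, compared with the same WT libraries, 16 of the 18 were lower, with a median of -4.53.

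Pax5, the factor that commits cells to the B lineage, had 2.53, 2.42, 2.89 and 2.26 CPM in WT and 0 counts in all 4 treated libraries. Its level was thus at least 41.1-fold lower, taking 3 counts over the group as the bound (adjusted p = 0.00123). Ms4a1, which encodes the B-cell surface protein CD20, went from 42.6, 31.1, 26 and 31.2 CPM to 0, 0.0808, 0 and 0.632 CPM (log2 fold change -7.52 ± 1.22, adjusted p = 0.00199). AZ17 held most of the remaining Ms4a1 counts.

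Genes for the pre-B-cell and B-cell receptors and their signaling were low as well. Cd79a, a signaling chain of that receptor, had 84.5, 73.4, 78.4 and 59.4 CPM in WT, 0.485, 1.13, 6.07 and 1.35 CPM with 5-Aza and 0.409, 0.203, 0.246 and 0.288 CPM with vehicle (log2 fold change -5.02 ± 0.7, adjusted p = 5.86e-04). It was higher with 5-Aza than with vehicle (log2 fold change 3.02 ± 0.77, adjusted p = 0.0448), by a difference that AZ16 led and that was not called when AZ11, AZ16, AZ17 or any vehicle library was left out (adjusted p 0.0511 to 0.328). Vpreb3 and the surrogate light chain gene Igll1 had 53.1, 49.8, 106 and 61.5 and 97.2, 82.3, 162 and 186 CPM in WT, against 0.162, 2.02, 4.02 and 1.62 and 0.728, 3.8, 19.1 and 2.08 CPM with 5-Aza (log2 fold change -5.1 ± 0.72, adjusted p = 5.86e-04 for Vpreb3, and log2 fold change -4.35 ± 0.93, adjusted p = 0.0195 for Igll1). In both genes AZ10 was the lowest library and AZ16 the highest of the 4. Without 1 library the call ended for Igll1 (AZ10, AZ11, AZ17, wt3 or wt4, adjusted p 0.0537 to 0.0762). The adaptor Blnk, which links the receptor to its downstream enzymes, went from 25.8, 37.1, 42.4 and 31.4 to 0.566, 1.29, 2.58 and 3.79 CPM (log2 fold change -4.05 ± 0.55, adjusted p = 5.56e-04). The coactivator Pou2af1 went from 35.8, 23.8, 42.2 and 26.9 to 0, 0.485, 2.5 and 1.26 CPM (log2 fold change -4.9 ± 0.93, adjusted p = 0.00724). The kinase Blk and the scaffold Bank1 were also called (log2 fold changes -5.73 ± 0.84 and -3.86 ± 0.56). Rag1, which cuts DNA for receptor gene assembly, was not called at -3.11 ± 0.95 (adjusted p = 0.104, and 0.0083 in the 8-library fit). Cd79b stood nearest to WT among the B-cell genes called in the 8-library fit, with 159.9 to 202 CPM in WT and 60.1 to 135 CPM with 5-Aza (adjusted p = 0.0931, and 0.00852 in that fit).

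Of 16 tested genes of lymphoid-primed progenitors, 4 were lower in 5-Aza than in WT, against 1.1% of all accessions, and 12 were not called, with a median of -1.0. The called genes were Il7r, Ly6d, Igll1 and Blnk, of which all but Ly6d are in the B-cell list as well. Il7r, the interleukin-7 receptor on which early lymphoid cells depend, had 33, 33, 55.5 and 52.9 CPM in WT and 0.728, 1.7, 2.58 and 0.541 CPM with 5-Aza (log2 fold change -4.96 ± 1.0, adjusted p = 0.0122). Ly6d, which marks the step from common lymphoid to B-cell progenitors, had 111, 91.7, 86.3 and 62 CPM and 0.404, 2.18, 7.44 and 7.22 CPM (log2 fold change -4.35 ± 0.93, adjusted p = 0.019). With 5-Aza, Ly6d ran from 0.404 CPM in AZ10 to about 7 CPM in AZ16 and AZ17, still below every WT library. Satb1, a chromatin organizer of lymphoid progenitors, had 5.74 to 17.5 CPM in WT and 1.52 to 4.28 CPM with 5-Aza and was not called (adjusted p = 0.0658, and 0.00568 in the 8-library fit). The call count was 1 without AZ10 or AZ17, 2 without AZ11, 3 without wt1, wt3 or wt4 and 4 without AZ16 or wt2. Leaving out 1 library ended the calls of Il7r (AZ10 or AZ17, adjusted p 0.0544 to 0.0603) and Ly6d (AZ10, AZ11, AZ17 or wt1, adjusted p 0.0507 to 0.0706), beside Igll1 as given above.

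T-cell and natural killer genes divided. Of 18 tested, 2 were lower and 1 higher, against 1.1% and 0.617% of all accessions, with a median of -1.46 (-0.23 under a stricter low-count filter). In the 8-library fit 8 were lower and 3 higher, against 11.7% and 8.52%. The list's summed level was higher with 5-Aza, at 1117 to 1591 CPM in WT and 2267 to 3778 CPM with 5-Aza. The sum was carried by Nkg7, a granule protein gene that myeloid progenitors also express, with 1123, 1292, 822 and 854 CPM in WT and 2176, 1962, 1937 and 3298 CPM with 5-Aza (log2 fold change 1.2 ± 0.47, adjusted p = 0.207, and 0.00644 in the 8-library fit). Cd2, an adhesion receptor of T and natural killer cells, had 8.5, 6.57, 5.45 and 7.41 CPM in WT and a single count in the treated group, in AZ16. The ratio of WT to 5-Aza was 343-fold, with a 95% counting interval of 61.2 to 13593 (adjusted p = 0.00104). Cd3e, a chain of the T-cell receptor complex, had 6.2, 3.77, 1.9 and 4.27 CPM in WT and 0.162, 0.243, 0.228 and 0.451 CPM with 5-Aza (log2 fold change -3.86 ± 0.84, adjusted p = 0.0216). Thy1 moved the other way, from 15.3, 8.91, 8.59 and 9.67 CPM in WT to 83.6, 133, 48 and 175 CPM with 5-Aza (log2 fold change 3.37 ± 0.6, adjusted p = 0.00373). Its lowest treated library, AZ16, was more than 3 times the highest WT library, and vehicle libraries held 192, 45.9, 175 and 176 CPM. The call of a single gene, Cd3e (AZ10, AZ11, AZ16, AZ17, wt1 or wt4, adjusted p 0.0527 to 0.079), ended without 1 of the libraries in brackets.

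Dendritic-cell genes had calls below WT with 5-Aza and mostly above WT with vehicle. Of 20 tested, 5 were lower in 5-Aza than in WT, against 1.1% of all accessions, and none higher, with a median of -1.63. With vehicle, 7 were higher and 2 lower than in the same WT libraries, against 4.43% and 5.71% of all accessions, with a median of 0.55. In 5-Aza 7 were lower than with vehicle, against 1.45%. The summed level was 901 to 1001 CPM in WT, 479 to 957 CPM with 5-Aza and 1394 to 2735 CPM with vehicle. The number called against WT was 2 without AZ10, AZ11 or wt1, 3 without AZ16, AZ17 or wt3 and 4 without wt2 or wt4.

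The 5 genes below WT were Siglech, Spib, Ly6d, Cox6a2 and Irf4, most of them known from plasmacytoid dendritic cells, and Ly6d is also in the lymphoid list. Siglech, a surface lectin of these cells, had 23.7, 20.38, 31.1 and 25.9 CPM in WT, 0.0809, 0.808, 0.152 and 1.62 CPM with 5-Aza and 9.82, 8.57, 3.61 and 0.768 CPM with vehicle (log2 fold change -5.25 ± 1.29, adjusted p = 0.0408). Spib, a transcription factor of B cells and plasmacytoid dendritic cells, had 18, 18.3, 26.1 and 22.1 CPM in WT, 0.0809, 1.13, 0.835 and 1.53 CPM with 5-Aza and 15.3, 2.63, 8.9 and 1.25 CPM with vehicle (log2 fold change -4.55 ± 0.84, adjusted p = 0.00532). Both genes were lower than WT in every treated library. Cox6a2, a muscle-type respiratory subunit that plasmacytoid dendritic cells also express, was lower (log2 fold change -2.69 ± 0.58, adjusted p = 0.0212). Irf4, a factor of dendritic, B and plasma cells, had 7.58, 8.0, 6.61 and 6.93 CPM in WT, 0.971, 1.54, 1.21 and 1.17 CPM with 5-Aza and 7.36, 6.89, 11.5 and 3.74 CPM with vehicle. It was lower with 5-Aza than in WT (log2 fold change -2.56 ± 0.47, adjusted p = 0.00525) and than with vehicle (log2 fold change -2.59 ± 0.47, adjusted p = 0.00575), while vehicle and WT overlapped. Leaving out 1 library ended the calls of Siglech (any of the 8, adjusted p 0.065 to 0.128) and Cox6a2 (AZ10, AZ11, AZ16, wt1 or wt3, adjusted p 0.0534 to 0.0777).

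The genes of conventional dendritic cells and antigen presentation showed the other pattern. Xcr1, a chemokine receptor of cross-presenting dendritic cells, had 10.4, 20.2, 11.1 and 11.4 CPM in WT, 1.05, 2.26, 3.57 and 1.98 CPM with 5-Aza and 213, 263, 134 and 103 CPM with vehicle. It was not called against WT (log2 fold change -2.57 ± 0.85, adjusted p = 0.135, and 7.91e-04 in the 8-library fit) and was lower than with vehicle (log2 fold change -6.32 ± 0.97, adjusted p = 0.00229). Itgae, the integrin chain CD103, was under 1 CPM in all WT and treated libraries and had 89.7, 55.5, 60.01 and 49.8 CPM with vehicle (log2 fold change -7.32 ± 1.06, adjusted p = 0.00199 for 5-Aza over vehicle). The class II gene H2-Ab1 had 398, 603, 298 and 288 CPM in WT, 96.4, 155, 109.95 and 163 CPM with 5-Aza and 3662, 4876, 2968 and 1367 CPM with vehicle (log2 fold change -1.6 ± 0.73, adjusted p = 0.282 against WT, 0.00134 in the 8-library fit, and log2 fold change -4.62 ± 0.82, adjusted p = 0.00525 against vehicle). All 4 treated libraries were below all 4 WT libraries, and all 4 vehicle libraries were above them. Of 11 tested class II genes, edgeR called none against WT in the 19-library fit (0 higher and 6 lower at an unadjusted p under 0.05, 0 higher and 1 lower by DESeq2 and 0 higher and 7 lower by limma-voom) and 6 lower in the 8-library fit, against 11.7% of all accessions. Their median was -1.45, and 5 were lower than with vehicle. Tlr11, a toll-like receptor, and Anpep, the aminopeptidase CD13, had the same order, with 3.39 to 6.95 and 4.27 to 7.4 CPM in WT, 0.228 to 0.889 and 0.541 to 1.67 CPM with 5-Aza and 34.9 to 139 and 14.6 to 103 CPM with vehicle (adjusted p = 0.063 and 0.127 against WT, 6.51e-04 and 0.00357 in the 8-library fit, and 0.00199 and 0.00199 against vehicle).

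Some genes were lower with 5-Aza than in both other groups. Serpinf1, which encodes the secreted factor PEDF, had 138, 127, 152 and 117 CPM in WT, 23.9, 29.5, 16.1 and 41.9 CPM with 5-Aza and 75.7, 165, 124 and 96.4 CPM with vehicle. WT and vehicle overlapped, and all 4 treated libraries lay below both (log2 fold change -2.26 ± 0.3, adjusted p = 4.76e-04 against WT, and log2 fold change -2.05 ± 0.3, adjusted p = 0.00199 against vehicle). The chemokine gene Ccl3 had 24.9, 25.1, 42.2 and 46.4 CPM in WT, 1.38, 6.47, 0.607 and 4.24 CPM with 5-Aza and 38.9, 28.8, 15.4 and 24.7 CPM with vehicle (log2 fold change -3.45 ± 0.59, adjusted p = 0.00266, and log2 fold change -3.08 ± 0.58, adjusted p = 0.00725). Treated libraries were again below both groups. Lag3, an inhibitory receptor of T cells that plasmacytoid dendritic cells also carry, had 14, 13.5, 11.7 and 13.1 CPM in WT, 2.18, 1.78, 0.835 and 0.902 CPM with 5-Aza and 3.14, 5.87, 24.2 and 11.4 CPM with vehicle (log2 fold change -3.19 ± 0.71, adjusted p = 0.0232, and log2 fold change -2.97 ± 0.7, adjusted p = 0.0299). Without 1 library the call against WT ended for Lag3 (any but wt2, adjusted p 0.052 to 0.0984).

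Interferon-response genes held 1 call against WT and more against vehicle. Of 45 tested, 1 was lower in 5-Aza than in WT and none was higher, against 1.1% and 0.617% of all accessions, with a median of -0.36. In the 8-library fit 12 were lower and 1 higher, where 11.7% of all accessions were lower and 8.52% higher. With vehicle, 10 were higher than in the same WT libraries (4.43% of all accessions), and 9 were lower in 5-Aza than in vehicle (1.45%). The gene called against WT was Samd9l, an interferon-induced growth suppressor, with 104, 92.1, 107 and 131 CPM in WT, 57.4, 54.9, 49.1 and 51.2 CPM with 5-Aza and 174, 137, 145 and 119 CPM with vehicle (log2 fold change -1.03 ± 0.26, adjusted p = 0.0458). All 4 treated libraries were below all WT and vehicle libraries. Ifi44l had 31.6, 28.4, 70.1 and 85.9 CPM in WT, 16.9, 32.3, 20.3 and 21.9 CPM with 5-Aza and 161, 172, 150.4 and 108 CPM with vehicle (log2 fold change -1.24 ± 0.41, adjusted p = 0.141 against WT, 0.0196 in the 8-library fit, and log2 fold change -2.69 ± 0.43, adjusted p = 0.00269 against vehicle). WT and 5-Aza overlapped at the level of wt1, wt2 and AZ11. Ifi27l2a, whose level is limited by a pair of accessions that share reads, had 10.2 to 19.1 CPM in WT, 6.3 to 31.1 CPM with 5-Aza and 34 to 298 CPM with vehicle (adjusted p = 0.957 against WT, and 0.0335 against vehicle). Without 1 library the call ended for Samd9l (any of the 8, adjusted p 0.0647 to 0.17).

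**Figure D2:**
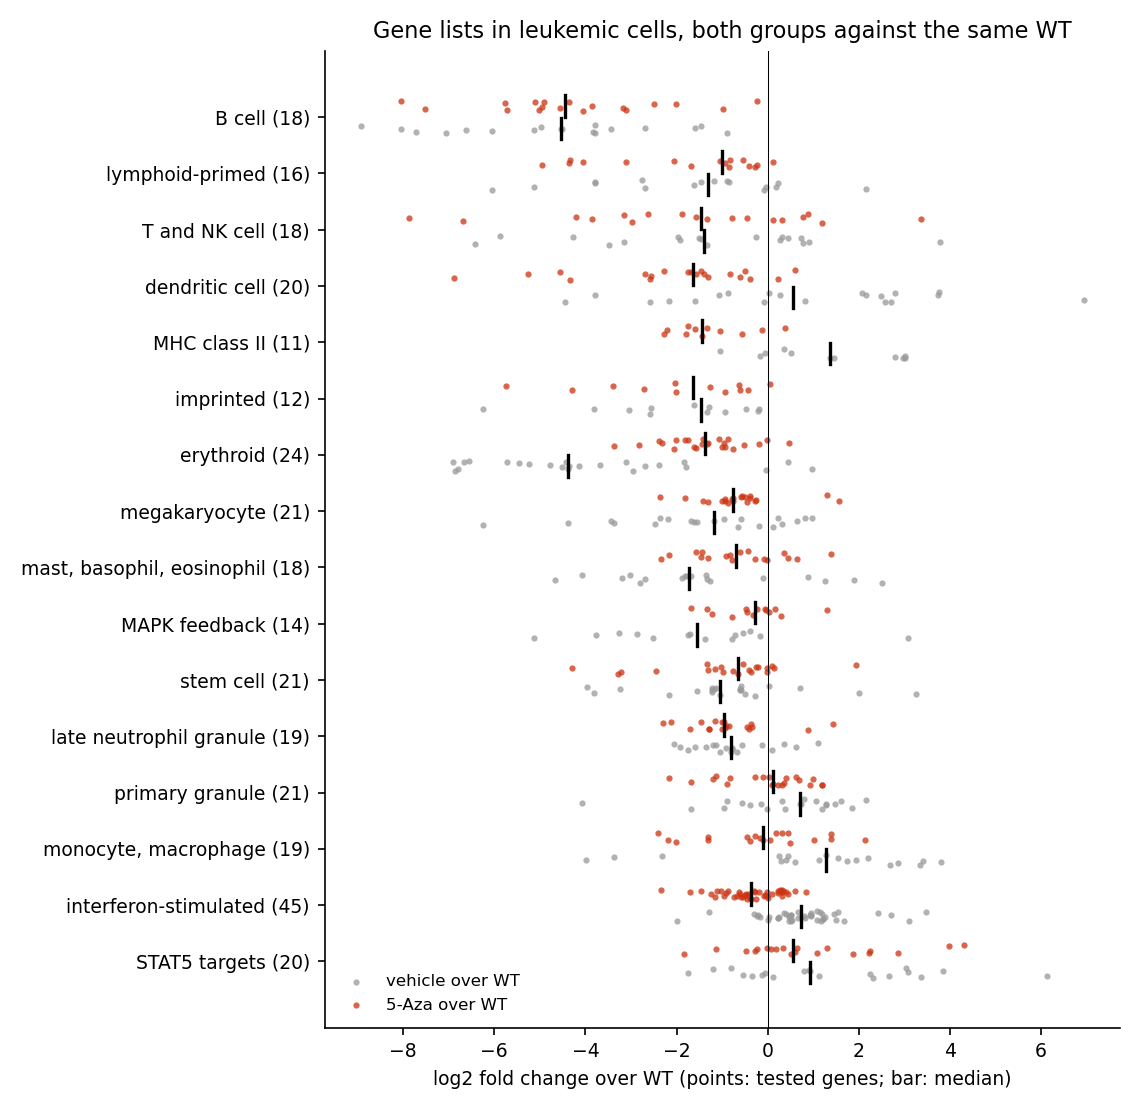
Log2 fold change (x axis) of each tested member of the gene lists (y axis, number tested in brackets), with a bar at the median, for 5-Aza over WT beside vehicle over WT, which share the 4 WT libraries. The B-cell list stands lowest in both, at -4.45 and -4.53, while the dendritic list is at -1.63 with 5-Aza and 0.55 with vehicle, and the erythroid list at -1.38 and -4.37.

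Erythroid genes stood nearer to WT with 5-Aza than with vehicle. Of 24 tested, 2 were lower than in WT and none higher, against 1.1% and 0.617% of all accessions, with a median of -1.38. The 8-library fit called 15 lower, against 11.7%. With vehicle 20 of 24 were lower than in the same WT libraries, with a median of -4.37, and 12 were higher in 5-Aza than in vehicle, against 0.431% of all accessions. The summed level was 2571 to 3377 CPM in WT, 1112 to 2374 CPM with 5-Aza and 458 to 886 CPM with vehicle. The number called against WT was 0 without AZ11, AZ16, AZ17, wt1 or wt3 and 1 without AZ10, wt2 or wt4.

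Gata1, the factor that directs red cell and megakaryocyte differentiation, had 37.4, 60.3, 26.7 and 28 CPM in WT, 26, 12.3, 28.5 and 9.47 CPM with 5-Aza and 1.09, 2.43, 2.38 and 1.25 CPM with vehicle. AZ10 and AZ16 lay within or beside the WT range and AZ11 and AZ17 below it, and every treated library was above every vehicle library. Gata1 was higher than with vehicle (log2 fold change 3.37 ± 0.53, adjusted p = 0.00243) and was not called against WT (log2 fold change -1.0 ± 0.47, adjusted p = 0.304). Gata2, a partner factor of stem and progenitor cells, had 209, 197, 227 and 211 CPM in WT, 255, 142, 190.3 and 107 CPM with 5-Aza and 46.9, 49.7, 63.9 and 103 CPM with vehicle (log2 fold change -0.28 ± 0.29, adjusted p = 0.659 against WT, and log2 fold change 1.4 ± 0.3, adjusted p = 0.0162 against vehicle). Here too the treated libraries spread across the WT level. Cldn13, an erythroid tight-junction protein of mice, was called against vehicle, with 20.1, 20.7, 15.2 and 16.3 CPM in WT, 3.4, 4.12, 10.7 and 5.41 CPM with 5-Aza and 0.136, 0.0675, 0.123 and 0.288 CPM with vehicle (5-Aza over vehicle 5.25 ± 0.62, adjusted p = 4.98e-04, and over WT -1.61 ± 0.47, 0.0918, and 0.00603 in the 8-library fit). Against WT the 19-library fit did not call Cldn13, while the 8-library fit, DESeq2 and limma did. Its levels with 5-Aza were below every WT library. Ermap, a red cell membrane protein gene, went the same way (4.89 ± 0.75, adjusted p = 0.00229 over vehicle, and -2.02 ± 0.61, 0.0978 over WT, 7.91e-04 in the 8-library fit). The erythropoietin receptor gene Epor had 13.8, 13.6, 9.66 and 11.4 CPM in WT, 5.42, 2.51, 6.53 and 1.89 CPM with 5-Aza and 0, 0.135, 0.451 and 0.576 CPM with vehicle (adjusted p = 0.34 against WT, 0.0118 in the 8-library fit, and 0.0435 against vehicle).

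The pair of erythroid genes called below WT was Aqp1 and Trib2. Aqp1, the water channel of the red cell membrane, had 33.2, 42.7, 50.5 and 20.3 CPM in WT, 13.2, 4.45, 12.6 and 5.05 CPM with 5-Aza and 3.68, 1.82, 8.45 and 2.78 CPM with vehicle (log2 fold change -2.05 ± 0.49, adjusted p = 0.0342). The pseudokinase gene Trib2 had 14.3, 19.7, 26 and 17.2 CPM in WT, 3.56, 0.889, 2.5 and 0.451 CPM with 5-Aza and 0.273, 0.135, 0.164 and 0.192 CPM with vehicle (log2 fold change -3.37 ± 0.75, adjusted p = 0.0233). In both genes AZ11 and AZ17 were lower than AZ10. Calls that ended without 1 library were those of Aqp1 (any but wt4, adjusted p 0.0564 to 0.135) and Trib2 (AZ11, AZ16, AZ17, wt1, wt3 or wt4, adjusted p 0.0516 to 0.0924). Their RefSeq promoter windows, 250 bases before to 50 after the start on build GRCm38.p6, were planned to be shown with the motif of GATA factors marked. CG pairs, on whose methylation the drug acts, are in capitals instead: Aqp1 (chr6:55336049-55336348, + strand) holds 8 CG and Trib2 (chr12:15816736-15817035, - strand) 40, where the median of 32851 promoter windows was 7. Neither window held the GATA motif AGATAA on either strand, which 11.2% of all windows did.
Aqp1: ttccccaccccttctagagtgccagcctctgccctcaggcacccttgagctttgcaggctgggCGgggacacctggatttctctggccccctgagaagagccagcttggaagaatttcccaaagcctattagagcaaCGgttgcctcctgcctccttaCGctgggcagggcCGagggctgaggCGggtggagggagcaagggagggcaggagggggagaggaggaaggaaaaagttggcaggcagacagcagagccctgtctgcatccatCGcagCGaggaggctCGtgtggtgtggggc
Trib2: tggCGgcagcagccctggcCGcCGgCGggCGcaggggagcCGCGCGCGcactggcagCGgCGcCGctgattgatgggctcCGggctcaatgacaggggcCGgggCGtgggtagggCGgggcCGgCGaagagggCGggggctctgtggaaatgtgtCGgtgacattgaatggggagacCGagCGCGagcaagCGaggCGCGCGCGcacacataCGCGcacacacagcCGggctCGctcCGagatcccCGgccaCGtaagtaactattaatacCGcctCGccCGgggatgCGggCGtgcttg
Methylation of these windows was not measured here.

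Megakaryocyte and MAPK-feedback genes held 1 call against WT. Of 21 megakaryocyte genes tested, 1 was higher and none lower in 5-Aza than in WT, against 0.617% and 1.1% of all accessions, with a median of -0.77. In the 8-library fit 2 were higher and 6 lower, against 8.52% and 11.7%. With vehicle 9 were lower than in the same WT libraries, against 5.71%. In 5-Aza 4 were higher and 1 lower than with vehicle, against 0.431% and 1.45%. The gene called was Selp, the adhesion molecule P-selectin, with 50.9, 46, 28.6 and 33.4 CPM in WT, 136, 99.8, 167 and 66 CPM with 5-Aza and 34, 71.1, 57.8 and 34.2 CPM with vehicle (log2 fold change 1.56 ± 0.39, adjusted p = 0.0465). Pf4, the platelet factor 4 gene, had 135, 131, 139.6 and 172 CPM in WT, 118, 29.3, 119 and 71.3 CPM with 5-Aza and 31.1, 4.52, 2.54 and 18.3 CPM with vehicle (log2 fold change -0.77 ± 0.69, adjusted p = 0.597). Of 14 genes that restrain or report ERK signaling, none was called against WT by edgeR (0 higher and 1 lower at an unadjusted p under 0.05, 0 higher and 0 lower by DESeq2 and 1 higher and 2 lower by limma-voom). With vehicle 5 were lower and 1 higher than in WT, against 5.71% and 4.43% of all accessions. In 5-Aza 3 were higher than with vehicle, against 0.431%. Dusp6, a phosphatase of ERK, had 60.4, 82.4, 124 and 82.7 CPM in WT, 109.8, 34.4, 123 and 10.6 CPM with 5-Aza and 10.8, 19.98, 12.4 and 18.2 CPM with vehicle (log2 fold change -0.33 ± 0.49, adjusted p = 0.776 against WT, and log2 fold change 2.18 ± 0.52, adjusted p = 0.0297 against vehicle). Etv5, an ERK-induced transcription factor, had 17.5, 17.9, 31.5 and 19.7, 22.6, 4.69, 26.7 and 8.66 and 1.5, 1.08, 2.46 and 1.15 CPM in the same order of groups (adjusted p = 0.739 against WT, and 0.0141 against vehicle). For Dusp6 and Etv5, AZ10 and AZ16 were at the WT level and AZ11 and AZ17 below it, the same split of libraries as for Gata1, and it was not tested. Leaving out 1 library ended the call of Selp (any of the 8, adjusted p 0.0507 to 0.166).

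Slc16a11 and Tgfbr3 were not called against WT and were higher with 5-Aza than with vehicle. The transporter gene Slc16a11 had 27, 23.8, 53.2 and 70.9 CPM in WT, 11.7, 17.1, 52.9 and 30.9 CPM with 5-Aza and 0.136, 0.135, 0.492 and 1.54 CPM with vehicle (log2 fold change -0.63 ± 0.66, adjusted p = 0.659 against WT, and log2 fold change 5.61 ± 0.84, adjusted p = 0.00229 against vehicle). The co-receptor gene Tgfbr3, for ligands of the TGF-beta family, had 49.4, 40.4, 45.1 and 63.9, 54.2, 26.6, 54 and 21.3 and 1.77, 6.28, 9.02 and 5.85 CPM in the same order of groups (log2 fold change over vehicle 2.74 ± 0.43, adjusted p = 0.00243, and over WT -0.35 ± 0.4, 0.694). Ranges of WT and 5-Aza overlapped in both genes.

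Stem-cell and imprinted genes held a few calls. Of 21 stem-cell genes tested, 1 was lower and 1 higher than in WT, against 1.1% and 0.617% of all accessions, with a median of -0.66. In the 8-library fit 9 were lower, against 11.7%. Hlf, a transcription factor of stem cells, had 742, 626, 1061 and 1019.8 CPM in WT, 593, 385, 422 and 305 CPM with 5-Aza and 150.1, 162, 121 and 332 CPM with vehicle (log2 fold change -1.02 ± 0.42, adjusted p = 0.235, and 0.011 in the 8-library fit). All treated libraries were below all WT libraries. Mecom, another stem-cell factor gene, whose level is limited by a pair of accessions that share reads, had 65.9, 54.6, 85.9 and 81.5 CPM in WT and 87.5, 72.3, 76.4 and 47.7 CPM with 5-Aza (log2 fold change -0.02 ± 0.51, adjusted p = 0.987), which overlapped. The gene called higher was Ifitm1, an interferon-induced membrane protein gene with a pair of accessions, at 4.37, 4.68, 3.39 and 2.74 CPM in WT and 7.44, 15.8, 7.59 and 27.3 CPM with 5-Aza (log2 fold change 1.94 ± 0.46, adjusted p = 0.0342). The gene called lower was Ndn, which is imprinted and encodes a protein that holds stem cells in quiescence, at 12.6, 7.63, 15.9 and 15.6 CPM in WT and 1.46, 0.485, 0.228 and 0.451 CPM with 5-Aza (log2 fold change -4.28 ± 1.07, adjusted p = 0.0449).

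Of 12 imprinted genes tested, Ndn and Meg3 were lower, against 1.1% of all accessions, and none was higher. The median was -1.64, and 7 were lower in the 8-library fit, against 11.7%. Meg3, a maternally expressed noncoding RNA with 3 accessions that share reads, had 6.05, 3.1, 1.49 and 4.51 CPM in WT and 3 counts in the whole treated group, in AZ10 and AZ11. The ratio of WT to 5-Aza was 62.3-fold, with a 95% counting interval of 21 to 305 (adjusted p = 0.00266). Phlda2, Peg12 and Mkrn3 had adjusted p of 0.0576, 0.0695 and 0.0558 (in the 8-library fit 0.00242, 4.87e-04 and 0.00568), with log2 fold changes of -2.01 ± 0.53, -2.71 ± 0.75 and -2.03 ± 0.53. Kcnq1ot1, the antisense RNA of an imprinted cluster, had 884 to 1476 CPM in WT, 355 to 636 CPM with 5-Aza and 18.1 to 394 CPM with vehicle (adjusted p = 0.351, and 0.00213 in the 8-library fit), and reads of an overlapping sense gene cannot be told apart without strand. With vehicle 6 of the 12 were lower than in the same WT libraries, against 5.71% of all accessions. Calls that ended without 1 library were those of Ndn (any of the 8, adjusted p 0.0647 to 0.153) and Ifitm1 (AZ11, AZ17, wt1, wt2, wt3 or wt4, adjusted p 0.065 to 0.183).

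Other genes were low outside these lists. Chst3, a sulfotransferase gene, had 11.2, 8.53, 14.2 and 10.6 CPM in WT and 3 counts in the treated group, all in AZ11, a ratio of WT to 5-Aza of 181-fold, with a 95% counting interval of 61.6 to 879.9 (adjusted p = 4.51e-04). Vehicle libraries held 0, 0.203, 0.164 and 0 CPM. Cecr2, a chromatin remodeling subunit gene, had 7.2, 7.32, 24.3 and 13.9 CPM in WT and 0.0809, 0.0808, 0.531 and 0.902 CPM with 5-Aza (log2 fold change -5.03 ± 0.85, adjusted p = 0.00266). The inhibitor of helix-loop-helix factors Id3 had 13.5, 16.2, 26.3 and 14.5 CPM in WT and 1.21, 0.889, 2.12 and 0.632 CPM with 5-Aza (log2 fold change -3.84 ± 0.91, adjusted p = 0.0342), whereas its relative Id1 was higher. Plk2, a kinase gene among p53 targets, had 7.05, 1.66, 1.73 and 6.04 CPM in WT and 0.243, 0.323, 0.455 and 0.18 CPM with 5-Aza (log2 fold change -3.73 ± 0.83, adjusted p = 0.0233). Without 1 library the calls ended for Id3 (any of the 8, adjusted p 0.0605 to 0.129) and Plk2 (AZ10, AZ11, AZ16, AZ17, wt1 or wt4, adjusted p 0.0609 to 0.0969).

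Genes higher with 5-Aza included Ccn3, Ncam2 and Fam20a. Ccn3, a secreted matricellular protein gene, was near 0 in WT, at 0.306, 0, 0.165 and 0.161 CPM, and had 16.8, 33.2, 7.13 and 51.3 CPM with 5-Aza and 98.9, 51, 99.3 and 117 CPM with vehicle (log2 fold change 7.34 ± 0.79, adjusted p = 1.11e-04). Each treated library was above every WT library, and AZ16 was lowest among them. Ncam2, a neural adhesion molecule gene with a pair of accessions, had 0.0766, 0.0755, 0.33 and 0 CPM in WT, 6.63, 25.7, 2.81 and 21.7 CPM with 5-Aza and 20.5, 15.6, 5.21 and 38.5 CPM with vehicle (log2 fold change 6.79 ± 1.26, adjusted p = 0.00579). The kinase-like Fam20a had 0.0766, 0.0755, 0.0826 and 0.806 CPM in WT and 3.72, 12.1, 3.95 and 26.3 CPM with 5-Aza (log2 fold change 5.43 ± 1.18, adjusted p = 0.0216). AZ10 and AZ16 were the lower of the treated libraries for Ncam2 and for Fam20a.

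Actr3b, an actin-nucleating subunit gene, had 0.996, 1.06, 2.39 and 2.18 CPM in WT, 9.71, 20.2, 10.5 and 35.6 CPM with 5-Aza and 59.3, 68.6, 77.8 and 41.7 CPM with vehicle. It was higher than in WT (log2 fold change 3.52 ± 0.42, adjusted p = 1.65e-04) and lower than with vehicle (log2 fold change -1.7 ± 0.38, adjusted p = 0.021), and no groups overlapped. Ptgir, the prostacyclin receptor gene, was also lowest in WT, with 5.06, 6.57, 8.01 and 3.46 CPM in WT, 28.6, 27.4, 38.2 and 39.97 CPM with 5-Aza and 13.2, 18.1, 13.5 and 15.5 CPM with vehicle. It was highest with 5-Aza (log2 fold change 2.54 ± 0.29, adjusted p = 1.65e-04 against WT, and log2 fold change 1.15 ± 0.28, adjusted p = 0.0333 against vehicle). Mtmr9, a phosphatase-like regulator gene, had 64.3, 57.9, 74.6 and 68.4 CPM in WT, 229, 281, 317 and 293 CPM with 5-Aza and 358, 477, 521 and 209.5 CPM with vehicle (log2 fold change 2.08 ± 0.25, adjusted p = 1.65e-04). Its 4 treated libraries were close together and above every WT library.

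Other high genes included several that encode surface or secreted proteins. The cytokine gene Tnfsf11 (RANKL) had 1.76, 0.755, 1.32 and 1.85 CPM in WT and 8.82, 21.7, 8.19 and 19.6 CPM with 5-Aza (log2 fold change 3.35 ± 0.58, adjusted p = 0.00318). The lectin gene Clec2f had 1.46, 2.79, 0.413 and 0.806 and 10.8, 11.1, 22.7 and 44.9 CPM (log2 fold change 4.02 ± 0.65, adjusted p = 0.00199). The epithelial adhesion gene Epcam had 3.6, 1.96, 2.23 and 0.967 and 11.6, 29.8, 18.8 and 63.5 CPM (log2 fold change 3.81 ± 0.9, adjusted p = 0.0324). The lipocalin gene Lcn4 had 0.383, 0.981, 1.57 and 0.403 and 6.31, 13.1, 10.02 and 48.2 CPM (log2 fold change 4.53 ± 1.01, adjusted p = 0.0232), with AZ17 far above the others. Cd48, a surface protein that more mature multipotent progenitors carry and long-term stem cells lack, had 412, 427, 293 and 323 CPM in WT and 1073, 1286, 1332 and 2014 CPM with 5-Aza (log2 fold change 1.97 ± 0.41, adjusted p = 0.017). Myl10, a myosin light chain gene with 4 accessions, was called at 3.25 ± 0.81 (adjusted p = 0.0449). Of the 73 accessions called higher, 39 were highest in AZ17, 21 in AZ11, 10 in AZ16 and 3 in AZ10, where the shares over all accessions tested were 29.1%, 25.5%, 24.9% and 20.5%. Leaving out 1 library ended the calls of Fam20a (AZ17, wt1, wt2 or wt3, adjusted p 0.0663 to 0.0866), Lcn4 (AZ17, wt1, wt2, wt3 or wt4, adjusted p 0.0569 to 0.108), Cd48 (AZ17, wt1, wt3 or wt4, adjusted p 0.0528 to 0.0749), Epcam (any but AZ10, adjusted p 0.0529 to 0.135) and Myl10 (any but AZ10, adjusted p 0.0625 to 0.183).

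**Figure D3:**
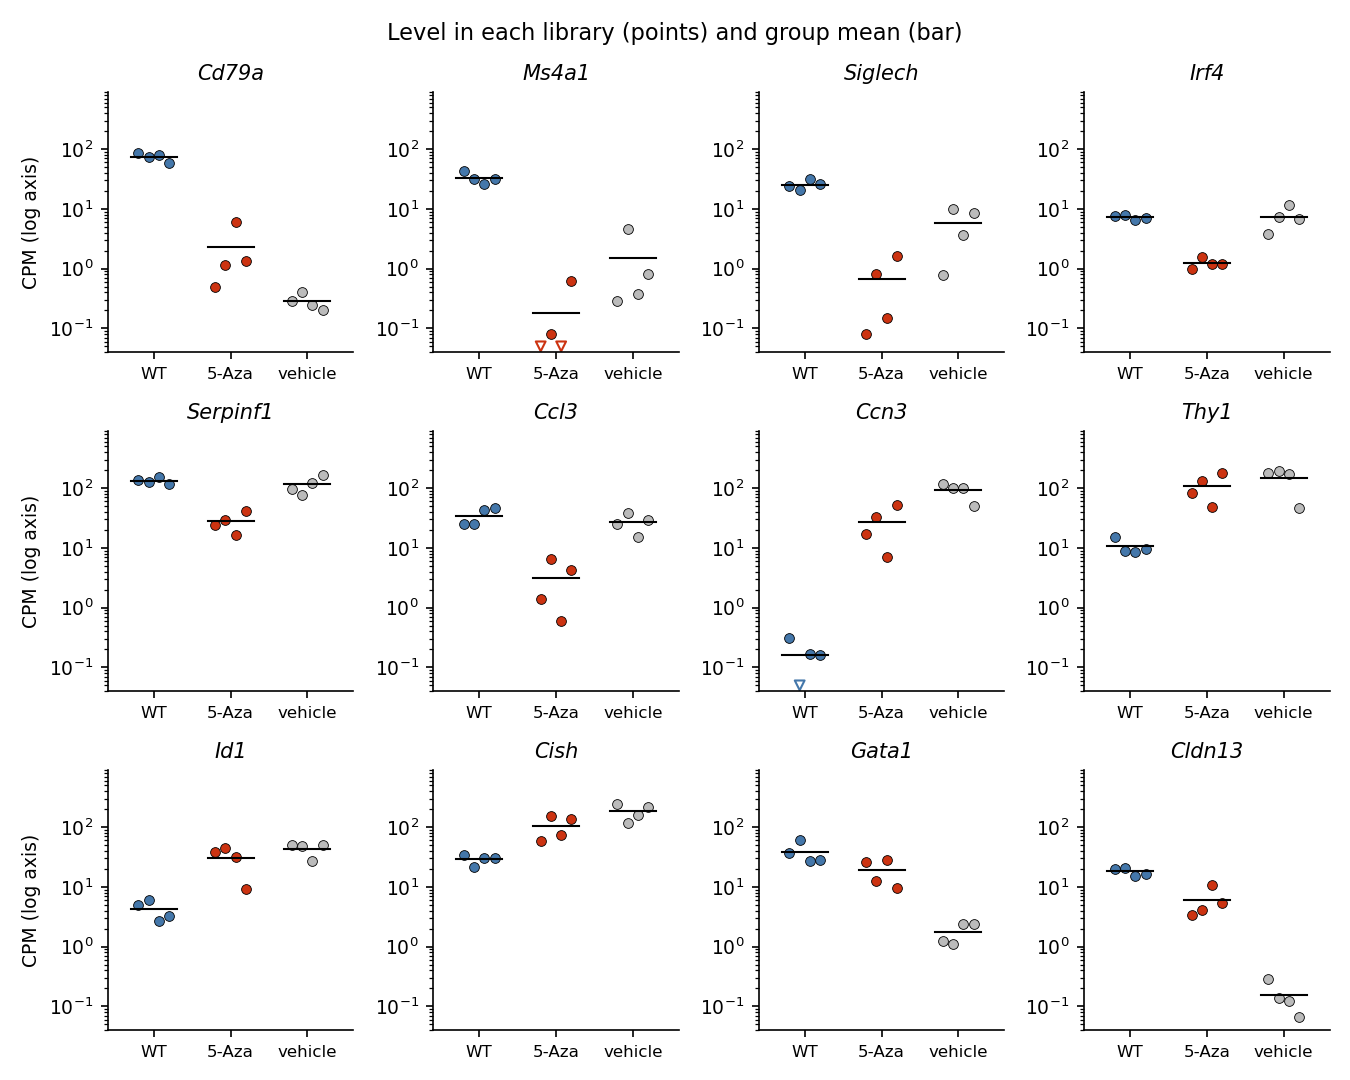
CPM on a log axis in each WT, 5-Aza and vehicle library for genes named in the text, with 1 point per library, open triangles for libraries at 0 and a bar at the group mean. B-cell genes are low in both leukemic groups, Ccn3 and Id1 are high in both, and Gata1 and Serpinf1 differ between the leukemic groups.

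Of 20 STAT5 target genes tested, 4 were higher in 5-Aza than in WT, against 0.617% of all accessions, and none was lower. The called genes were Socs2, Cish, Id1 and Pim2, and the list's median was 0.56. In the 8-library fit 6 were higher and 2 lower, against 8.52% and 11.7% of all accessions. With vehicle 7 were higher than in the same WT libraries, against 4.43%, with a median of 0.92. In 5-Aza 1 gene, Bcl6, was lower than with vehicle, against 1.45%. Cish, a feedback inhibitor of cytokine receptors, had 34.2, 21.6, 29.97 and 30.2 CPM in WT, 57.4, 155, 73.2 and 139 CPM with 5-Aza and 116, 213, 161 and 241 CPM with vehicle (log2 fold change 1.87 ± 0.47, adjusted p = 0.0456). AZ10 and AZ16 were the nearest to WT and did not overlap it. Socs2, a related inhibitor with 4 accessions that share reads, had 0.23, 0.0755, 0 and 0.403 CPM in WT, 1.86, 5.74, 6.53 and 0.632 CPM with 5-Aza and 9.68, 19.9, 10.5 and 12.3 CPM with vehicle (log2 fold change 4.31 ± 0.94, adjusted p = 0.0219). Its counts were low in every group, and it did not pass the low-count filter of the 8-library fit. Id1 had 4.98, 5.96, 2.64 and 3.3 CPM in WT, 38.4, 44.5, 31 and 9.02 CPM with 5-Aza and 47.3, 50.03, 27.2 and 50.4 CPM with vehicle (log2 fold change 2.86 ± 0.4, adjusted p = 5.86e-04), with AZ17 nearest to WT. The survival kinase gene Pim2 had 34.6, 23.4, 23.9 and 24.6 CPM in WT, 86.8, 181, 60.2 and 176 CPM with 5-Aza and 124, 102, 150.2 and 151 CPM with vehicle (log2 fold change 2.24 ± 0.53, adjusted p = 0.0342). Its relative Pim1 had 90.6, 143, 59.7 and 106 CPM with 5-Aza, over 52.5, 36.5, 46.6 and 51.9 CPM in WT, and was not called (adjusted p = 0.277, and 0.00646 in the 8-library fit). Bcl6, a repressor gene, had 14.3 to 15.6 CPM in WT, 3.07 to 5.31 CPM with 5-Aza and 10.2 to 44.5 CPM with vehicle (adjusted p = 0.0966 against WT, 5.03e-04 in the 8-library fit, and 0.0173 against vehicle). The number called higher was 1 without AZ11, wt1, wt2 or wt3, 2 without AZ16, AZ17 or wt4 and 4 without AZ10. Calls that ended without 1 library were those of Cish (any but AZ10, adjusted p 0.0624 to 0.143), Socs2 (AZ11, AZ16, wt1, wt2 or wt3, adjusted p 0.0624 to 0.080) and Pim2 (AZ11, AZ17, wt1, wt2, wt3 or wt4, adjusted p 0.0708 to 0.122).

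Promoter windows were planned to be shown for Cish and Socs2, and the reference used held none for Socs2. The RefSeq window of Cish (chr9:107296409-107296708, + strand, build GRCm38.p6, 250 bases before to 50 after the start) holds the STAT motif TTCNNNGAA, marked in capitals, at 2 places, TTCCTGGAA from the start base and TTCTTGGAA from 11 bases after it. The motif reads the same on both strands. Of 32851 promoter windows of this length, 8.3% held at least 1 such motif and 0.457% held 2 or more.
Cish: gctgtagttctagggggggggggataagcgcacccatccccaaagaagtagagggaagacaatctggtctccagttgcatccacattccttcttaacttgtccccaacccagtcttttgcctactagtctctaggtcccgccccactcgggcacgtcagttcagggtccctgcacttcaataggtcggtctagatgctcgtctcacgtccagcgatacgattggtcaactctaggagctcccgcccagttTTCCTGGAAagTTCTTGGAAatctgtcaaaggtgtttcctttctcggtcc
The match describes letters of the sequence, and STAT5 binding was not measured here.

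Cytokine receptor and signaling genes had few calls. Csf2rb, the shared chain of the receptors for GM-CSF, interleukin-3 and interleukin-5, had 109, 108, 90.9 and 98.6 CPM in WT, 195, 293, 164 and 245 CPM with 5-Aza and 128, 304, 241 and 289 CPM with vehicle (log2 fold change 1.14 ± 0.26, adjusted p = 0.0296). Of 25 receptor genes tested, Csf2rb alone was higher and Il7r alone lower, against 0.617% and 1.1% of all accessions. In the 8-library fit 4 were higher and 6 lower, against 8.52% and 11.7%. Nfkb1, which encodes the p50 subunit of NF-kappaB, had 258, 275, 311 and 241 CPM in WT and 433, 546, 389 and 526 CPM with 5-Aza (log2 fold change 0.8 ± 0.2, adjusted p = 0.0458). Of 21 genes of that pathway, Nfkb1 alone was higher and Ccl3 alone lower. The 8-library fit called 2 higher and 6 lower, and the shares of all accessions are those given for the receptors. Pmaip1, which encodes the pro-apoptotic protein NOXA, had 1.69, 3.32, 2.56 and 0.806 CPM in WT, 4.61, 14.4, 6.45 and 8.39 CPM with 5-Aza and 14.3, 33.9, 22.5 and 21.2 CPM with vehicle (log2 fold change 2.01 ± 0.5, adjusted p = 0.0417). Of 25 p53 targets tested, Pmaip1 was higher and Plk2 lower, with a median of -0.02. The 8-library fit called 4 of them higher and 3 lower, against the same shares. Without 1 library the calls ended for Csf2rb (AZ11, AZ17, wt1, wt2, wt3 or wt4, adjusted p 0.065 to 0.109), Pmaip1 (AZ11, AZ16, AZ17, wt1, wt3 or wt4, adjusted p 0.0651 to 0.149) and Nfkb1 (any of the 8, adjusted p 0.0624 to 0.168).

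Myeloid granule genes held few calls. None of 21 primary granule genes was called by edgeR in the 19-library fit (5 higher and 1 lower at an unadjusted p under 0.05, 1 higher and 0 lower by DESeq2 and 5 higher and 2 lower by limma-voom). The 8-library fit called 3 higher and 3 lower, against 8.52% and 11.7% of all accessions. The median was 0.11, and -0.09 without wt4. Mpo, the peroxidase of those granules, had 2552, 4907, 1550.5 and 557 CPM in WT, 2069.7, 2309, 2662 and 1902 CPM with 5-Aza and 2163, 6278, 5305 and 2213 CPM with vehicle (log2 fold change -0.1 ± 0.58, adjusted p = 0.949), and the WT libraries spread more widely than the treated ones. Ctsg, a granule protease gene, had 542, 700.00, 239.6 and 176 CPM in WT and 740.1, 709, 654 and 1045 CPM with 5-Aza (log2 fold change 0.93 ± 0.41, adjusted p = 0.267). Of 19 late neutrophil genes, Padi4 alone was called higher and none lower, against 0.617% and 1.1% of all accessions, with a median of -0.95. In the 8-library fit 8 were lower, against 11.7%. Padi4, a histone-citrullinating enzyme gene, had 83.6, 86.2, 94.5 and 89.2 CPM in WT, 222, 262, 213 and 255 CPM with 5-Aza and 130.5, 205, 235 and 196 CPM with vehicle (log2 fold change 1.43 ± 0.21, adjusted p = 8.54e-04), 2 tight groups with a wide gap. The gelatinase gene Mmp9, of late neutrophils, had 7.58 to 13.4 CPM in WT and 0.566 to 3.72 CPM with 5-Aza (adjusted p = 0.173, and 0.00366 in the 8-library fit). The basophil protease gene Prss34 had 105, 128, 166 and 106 CPM in WT and 12.5, 29, 32.2 and 38.1 CPM with 5-Aza (log2 fold change -2.18 ± 0.83, adjusted p = 0.196, and 3.58e-04 in the 8-library fit). No member of the list of mast cell, basophil and eosinophil genes was called by edgeR in the 19-library fit, of 18 tested (1 higher and 5 lower at an unadjusted p under 0.05, 1 higher and 0 lower by DESeq2 and 1 higher and 5 lower by limma-voom). The 8-library fit called 1 higher and 6 lower, against 8.52% and 11.7% of all accessions.

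Monocyte genes held more calls with vehicle than with 5-Aza, each against the same WT libraries. Of 19 tested, 1 was higher in 5-Aza than in WT and none lower, against 0.617% and 1.1% of all accessions, with a median of -0.1. The 8-library fit called 1 higher and 3 lower, against 8.52% and 11.7%. With vehicle 7 were higher and 2 lower than in WT (4.43% and 5.71% of all accessions), and 2 were lower in 5-Aza than in vehicle (1.45%). Ccr2, the chemokine receptor of inflammatory monocytes, had 66.9, 92.3, 41 and 48 CPM in WT, 31.5, 103, 45.1 and 77.9 CPM with 5-Aza and 527, 685, 318 and 277 CPM with vehicle (log2 fold change 0.05 ± 0.52, adjusted p = 0.97 against WT, and log2 fold change -2.81 ± 0.55, adjusted p = 0.00985 against vehicle). Mpeg1, a pore-forming protein gene of macrophages, had 66.6, 92.7, 51.3 and 55.4 CPM in WT, 10.8, 46.5, 15.1 and 35.7 CPM with 5-Aza and 630.4, 456, 1430.5 and 315 CPM with vehicle (adjusted p = 0.37 against WT, 0.0265 in the 8-library fit, and 0.00366 against vehicle). The gene called against WT was S100a4, a calcium-binding protein gene, with 21.7, 14.9, 14.4 and 13.1 CPM in WT, 38.5, 82, 33.1 and 129 CPM with 5-Aza and 541, 60.6, 139 and 161 CPM with vehicle (log2 fold change 2.14 ± 0.55, adjusted p = 0.0489). Its neighbor in the family, S100a6, had 95, 78.7, 97.2 and 107 CPM in WT and 413, 383, 347 and 955 CPM with 5-Aza (log2 fold change 2.47 ± 0.46, adjusted p = 0.00579). AZ17 was the highest treated library for both. Leaving out 1 library ended the call of S100a4 (any of the 8, adjusted p 0.0511 to 0.207).

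Genes of DNA methylation and of drug handling held no calls. None of 17 tested genes of DNA methylation was called against WT by edgeR (0 higher and 3 lower at an unadjusted p under 0.05, 0 higher and 1 lower by DESeq2 and 3 higher and 3 lower by limma-voom), and the 8-library fit called 2 higher and 3 lower, against 8.52% and 11.7% of all accessions. None of 28 tested genes of azacytidine handling was called (3 higher and 1 lower at an unadjusted p under 0.05, 0 higher and 0 lower by DESeq2 and 5 higher and 2 lower by limma-voom), and the 8-library fit called 4 higher and 1 lower, against the same shares. Their medians were 0.15 and 0.16, and -0.06 and -0.08 on log2(FPKM + 0.1). The methyltransferase genes Dnmt1, Dnmt3a and Dnmt3b have 4, 3 and 9 accessions that share reads, so that their counts were near 0 and they could not be checked. Cda, which deaminates the drug, has 1 accession and had too few counts to be tested. Uck2, the kinase that takes the first step in activating 5-azacytidine, had 35.6, 38.2, 34.3 and 23 CPM in WT, 51.2, 54, 44 and 81.7 CPM with 5-Aza and 61.4, 49, 176 and 68.7 CPM with vehicle (log2 fold change 0.82 ± 0.46, adjusted p = 0.384, and 0.021 in the 8-library fit). All treated libraries were above all WT libraries. The nucleoside transporter gene Slc29a1, with 5 accessions that share reads, was at 0.242 to 1.07 CPM in WT and 0.632 to 1.52 CPM with 5-Aza (log2 fold change 0.58 ± 0.74, adjusted p = 0.73). The nucleoside diphosphate kinase gene Nme1 had 608, 656, 554 and 446 CPM in WT and 1015, 839, 1076 and 1770.3 CPM with 5-Aza (log2 fold change 1.05 ± 0.38, adjusted p = 0.171, and 0.0116 in the 8-library fit). Idh2, the mitochondrial enzyme that makes the cosubstrate of TET2, had 132 to 203 CPM in WT and 229 to 359.97 CPM with 5-Aza (adjusted p = 0.349, and 0.0225 in the 8-library fit). Of 30 listed germline genes, which DNA methylation keeps silent in body cells, 5 had enough counts to be tested and none was called by edgeR, at an unadjusted p under 0.05, by DESeq2 or by limma-voom. The sum of the list was 33.4 to 43.9 CPM in WT and 25.3 to 39.1 CPM with 5-Aza.

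Cell-cycle and respiratory genes had positive medians, with few or no calls in the 19-library fit. Of 34 genes of the G2 and M phases, 1 was higher, against 0.617% of all accessions, with a median of 0.5. In the 8-library fit 13 were higher and none lower, where 8.52% of all accessions were higher. The gene called was Cdc20, an activator of the anaphase-promoting complex, with 74.3, 90.1, 80.00 and 51 CPM in WT and 148, 125, 135 and 129.8 CPM with 5-Aza (log2 fold change 0.86 ± 0.22, adjusted p = 0.0484). Of 35 S-phase genes edgeR called none (5 higher and 0 lower at an unadjusted p under 0.05, 0 higher and 0 lower by DESeq2 and 11 higher and 0 lower by limma-voom) and 6 were higher in the 8-library fit, with a median of 0.41. Respiratory chain genes had none called by edgeR of 34 (7 higher and 0 lower at an unadjusted p under 0.05, 1 higher and 0 lower by DESeq2 and 12 higher and 0 lower by limma-voom), 15 higher in the 8-library fit and a median of 0.57. Pgk1, a glycolytic enzyme gene, had 22.5, 25.2, 20.7 and 19.8 CPM in WT and 45.2, 34.7, 38.4 and 49.6 CPM with 5-Aza (log2 fold change 0.93 ± 0.24, adjusted p = 0.0474). It was the only one called of 25 genes of glycolysis and hypoxia, where 0.617% of all accessions were higher. The 8-library fit called 2 of these higher and 0 lower, against 8.52% and 11.7%. None of 15 tested Hox genes was called by edgeR in the 19-library fit (2 higher and 2 lower at an unadjusted p under 0.05, 1 higher and 1 lower by DESeq2 and 3 higher and 3 lower by limma-voom). The 8-library fit called 1 higher and 2 lower, against 8.52% and 11.7% of all accessions. The median was -0.09, and 0.17 without wt4. Calls that ended without 1 library were those of Cdc20 (any of the 8, adjusted p 0.0569 to 0.208) and Pgk1 (any of the 8, adjusted p 0.0706 to 0.172).

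The other lists held few calls in the 19-library fit. Endothelial and stromal genes, which the gate should remove, had none called by edgeR in that fit of 8 tested (0 higher and 4 lower at an unadjusted p under 0.05, 0 higher and 1 lower by DESeq2 and 0 higher and 4 lower by limma-voom). Their summed level was 146 to 164 CPM in WT, 61.4 to 94.7 CPM with 5-Aza and 44.5 to 113 CPM with vehicle. Their part in the other results was not tested. Ribosomal protein genes had none called of 43 (3 higher and 3 lower at an unadjusted p under 0.05, 0 higher and 0 lower by DESeq2 and 2 higher and 3 lower by limma-voom) and a median of 0.37. Class I antigen presentation had none called of 16 (1 higher and 0 lower at an unadjusted p under 0.05, 0 higher and 0 lower by DESeq2 and 0 higher and 0 lower by limma-voom), and nucleic acid sensing none of 17 (1 higher and 3 lower at an unadjusted p under 0.05, 0 higher and 0 lower by DESeq2 and 1 higher and 5 lower by limma-voom), with medians of 0.28 and -0.35. The unfolded protein response had none called of 24 (1 higher and 1 lower at an unadjusted p under 0.05, 0 higher and 0 lower by DESeq2 and 2 higher and 1 lower by limma-voom), and immediate early genes none of 19 (0 higher and 3 lower at an unadjusted p under 0.05, 0 higher and 1 lower by DESeq2 and 0 higher and 5 lower by limma-voom). In the 8-library fit, calls higher and lower were 0 and 4 for endothelial and stromal genes and 1 and 2 for ribosomal protein genes. They were 0 and 0 for class I antigen presentation and 1 and 4 for nucleic acid sensing. For the unfolded protein response they were 1 and 1, and for immediate early genes 0 and 5. The shares of all accessions were 8.52% and 11.7%. Of 42 blood-cell transcription factors, Id1 was higher and Id3, Irf4 and Pax5 were lower, against 0.617% and 1.1% of all accessions. Their median was -0.82, and the 8-library fit called 3 higher and 16 lower, against 8.52% and 11.7%. Of 14 genes of the BCL2 family and its regulators, Pmaip1 alone was called, as higher, where 0.617% of all accessions were. The 8-library fit called 4 of them higher and 1 lower, against 8.52% and 11.7%.

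**Figure D4:**
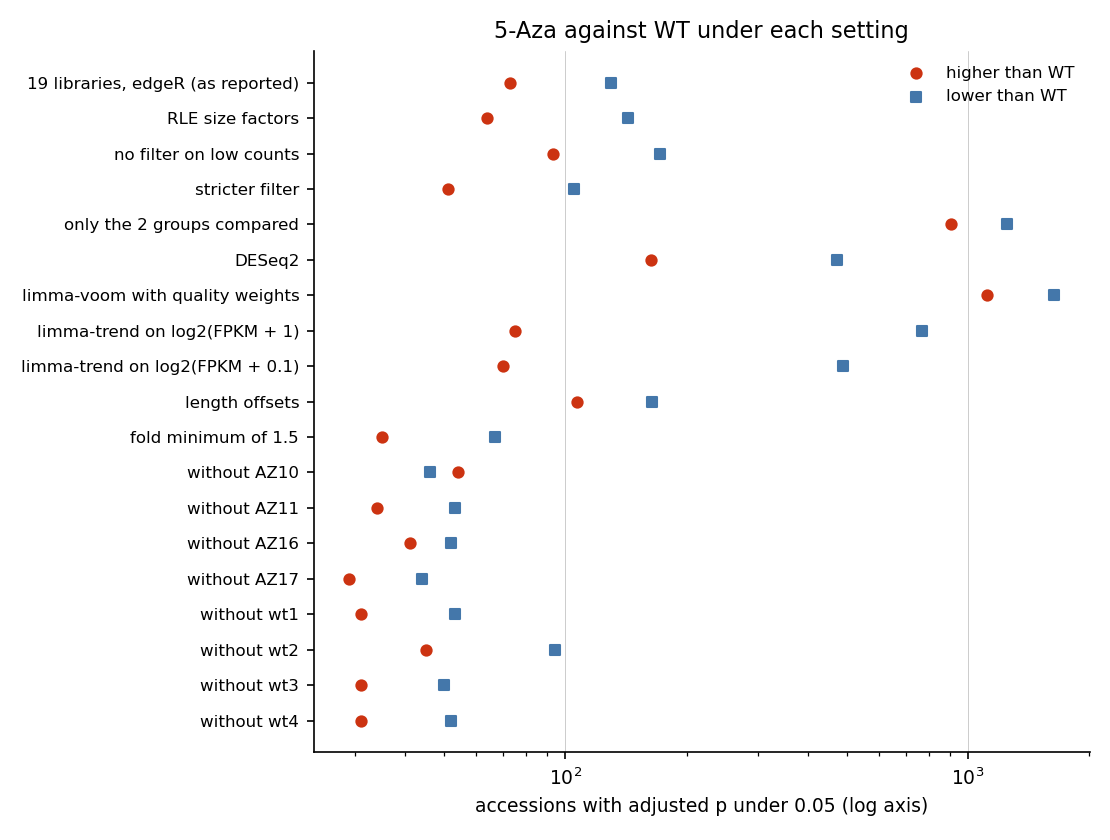
Number of accessions called higher and lower in 5-Aza than in WT under each processing setting and without each of the 8 libraries. The 19-library fit gives 73 and 130, the 8-library fit 907 and 1250, and leaving out single libraries 29 to 54 and 44 to 94.

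Of the 203 accessions called, 64 were called without each of the 8 libraries in turn, 27 of them higher and 37 lower. The groups did not overlap for 202 of the 203, where 11.6% of all accessions lay higher and 13.4% lower without overlap. Among the genes named here, those called whichever of the 8 libraries was left out included Cd79a, Pax5, Ms4a1, Cd2, Irf4, Serpinf1 and Ccl3 on the low side and Ccn3, Ncam2, Actr3b, Thy1, Id1, Padi4, Ptgir and Mtmr9 on the high side.

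Calls of 5-Aza against vehicle also depended on single libraries. For the genes named here, those that ended without 1 library were Gata2 (AZ10, AZ16 or V5, adjusted p 0.0584 to 0.091), Actr3b (AZ10, AZ11, AZ16, V5 or V5-2, adjusted p 0.0522 to 0.102), Ptgir (any but AZ11, adjusted p 0.053 to 0.123), Lag3 (AZ10, AZ11, AZ16, AZ17 or V5-2, adjusted p 0.063 to 0.127) and Ifi27l2a (AZ10, AZ11, AZ16, V1 or V5, adjusted p 0.0561 to 0.142). The same held for Dusp6 (AZ10, AZ16, V1, V19, V5 or V5-2, adjusted p 0.0505 to 0.15), Etv5 (AZ10 or AZ16, adjusted p 0.0558 to 0.0645), Bcl6 (AZ10, AZ11, AZ16 or AZ17, adjusted p 0.0534 to 0.0645) and Epor (any of the 8, adjusted p 0.0551 to 0.143), and for Ccr2 without AZ16 (adjusted p 0.0634). The vehicle comparisons without V5 gave 545 higher and 594 lower than in WT, and 29 higher and 106 lower in 5-Aza than in vehicle. Without V5-2 they gave 615 and 480, and 19 and 133.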

How the data were processed

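PolyA RNA of sorted LSK cells was measured in 19 libraries made with the SMARTer Ultra Low Input kit, per the labels' protocols. Alignment by the authors used STAR 2.4.0f1 on mm9, and they made counts per RefSeq accession with featureCounts of Subread 1.4.5-p1 per the submitters' processing notes. The strand setting is not given in the sources used here. The deposited count table holds raw counts, and the deposited FPKM table, which the authors scaled by transcript length and library size, was used only in alternatives. Reads shared between accessions of a gene were not counted, so genes with several accessions (5140 genes) have understated levels. Accessions without a gene name (189) held 3.47% of counts.

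Groups were taken from column headers and the labels' titles. Accessions were named from a RefSeq table and GENCODE, and the accession with the highest mean CPM stood for each gene. CPM uses library totals scaled by TMM factors (0.761 to 1.219). edgeR 4.0.16 (R 4.3.3) fitted 5 group means to 19 libraries by quasi-likelihood with 14 residual degrees of freedom, and p-values were adjusted by the Benjamini-Hochberg method over 11830 accessions that passed its low-count filter. Called means an adjusted p under 0.05. A standard error is the size of the log2 fold change divided by the square root of F. On simulated counts for 5-Aza versus WT over 11830 accessions, changes of 2-fold, 4-fold and 8-fold were found at 13.6%, 61.8% and 78.1%, with 2 false calls among 11630. Alternatives used DESeq2 1.42.0 and limma 3.58.1, as listed in the closing section. Tables and figures used Python 3.11.15, pandas 2.3.3 and matplotlib 3.10.9.

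The members and the 36 gene lists were chosen with earlier results of these data known. Of 92 genes named by rule or choice, 68 follow a rule. It takes 16 genes of interest, the 10 largest called changes in each direction with a mean of at least 5 CPM and no overlap, up to 3 called members of each list with the smallest p, and the 4 smallest p in each direction against vehicle. Predicted, small RNA and sex-linked marker genes were left out. The other 24 (Ptgir, Mtmr9, S100a6, Cd48, Lag3, Id3, H2-Ab1, Ifi44l, Ifi27l2a, Ccr2, Mpeg1, Mecom, Dusp6, Etv5, Xcr1, Prss34, Mmp9, Nme1, Idh2, Ctsg, Pim1, Bcl6, Epor and Pf4) were chosen after their values were seen, as were Igll1, Blk, Bank1, Rag1, Cd79b, Satb1, Nkg7, Cox6a2, Phlda2, Peg12, Mkrn3 and Kcnq1ot1. The lowest chi-square per gene between libraries of a group was 14.6, so no pair were copies. Some genes that the rule takes are not reported here. Counting intervals cover counting error only, since reads are not independent molecules.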

Additional observations from a re-analysis of the deposited data

Results flagged for a closer look

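In groups of 4 libraries, 257 gene and group combinations were examined for 1 library far from the other 3, and 22 had one. Dixon's test, which was used, flags about 1 in 20 groups of normally distributed values by chance. It always flags a group with counts in only 1 library, so that rate cannot be set against the 22. No cause of these values was tested.

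With 5-Aza, AZ17 stood apart for Lcn4 at 48.18 CPM, for S100a6 at 954.7 CPM and for Ms4a1 at 0.6315 CPM. AZ16 stood apart for Cd79a at 6.07 CPM and for Cd2 at 0.07588 CPM, a single count, and AZ11 for Chst3 at 0.2425 CPM, where the other libraries had no counts.

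In WT, wt4 held 0.8058 CPM of Fam20a, above the others at 0.0755 to 0.0826 CPM. The library wt1 was high for Thy1 at 15.32 CPM and for Pim2 at 34.62 CPM. For Anpep at 7.399 CPM and Xcr1 at 20.23 CPM it was wt2, and for Etv5 at 31.54 CPM it was wt3.

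With vehicle, V5-2 was far above the others for Uck2 at 175.7 CPM and for Ifitm1 at 27.93 CPM, and below them for Id1 at 27.23 CPM. It also held the single counts of Cecr2 and of Pax5, each 0.04102 CPM. The library V1 stood apart for Ms4a1 at 4.636 CPM and for Ndn at 3.682 CPM. V5 was low for Thy1 at 45.91 CPM and held Cd2 at 0.2701 CPM, and V19 held Cd3e at 0.2879 CPM.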

How the results depend on the processing

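Counts are given as higher and lower. For 5-Aza versus WT (73 and 130), the 8 libraries alone gave 907 and 1250, DESeq2 163 and 472, limma-voom with quality weights 1115 and 1640, and a fold minimum of 1.5 gave 35 and 67. On log2(FPKM + 1) limma gave 75 and 769, and on log2(FPKM + 0.1) 70 and 490. These scales put the median of all accessions at -0.16 and -0.25, against -0.03. Leaving out 1 library gave 29 to 54 higher and 44 to 94 lower. For vehicle versus WT (524 and 675), DESeq2 gave 804 and 1124, the FPKM scales 304 and 302 higher with 1580 and 1453 lower, length offsets 788 higher, limma-voom 430 lower, the fold minimum 192 and 311, and single left-out libraries 202 to 615 and 291 to 805. For 5-Aza versus vehicle (51 and 171), the 8 libraries gave 22 higher, DESeq2 130 and 332, limma-voom 16 higher, the fold minimum 25 higher, and single left-out libraries 9 to 56 and 48 to 185. TMM against RLE factors, no filter and a stricter filter were within 1.5 times for 5-Aza versus WT, and the causes of the other changes were not tested. No gene named by rule or choice with recomputed values reversed its direction where called, and 26 of 53 were called without each of the 8 libraries. Of the 53, 34 were called under each of the 10 other settings that tested them. Pax5, Cd3e, Meg3 and Plk2, which are among the 34, were tested in 9 of these settings. The small medians of primary granule and Hox genes changed sign without wt4, that of monocyte genes without AZ10 or wt2, and those of DNA methylation and azacytidine handling genes on FPKM scales. No paired analysis was possible because the 5-Aza columns carry the numbers 10, 11, 16 and 17 and not the labels' replicate numbers. Depth limits genes under about 1 CPM, and the accessions that share reads were not recovered.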
